A study of Mus musculus with 4 samples.

Results

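The genes described here control the PI3K pathway or carry its signal to the FOXO transcription factors: Foxo1, Foxo3, Pik3ip1, Pik3r1, Pik3cd, Inpp5d, Inpp4b, Akt1 and Akt2. They were chosen by name, with earlier results of these data known, and all 9 were found among the 24312 genes of the deposited table. Poly(A) RNA was sequenced from P14 CD8 T cells on a C57BL/6 background, which carry a transgenic receptor for the gp33 peptide of lymphocytic choriomeningitis virus. Both groups received 100 ng/ml gp33 for 1 day and were then spin transduced with a retrovirus. The MIG group received the empty vector, which expresses GFP from an internal ribosome entry site, and the BATF group the same vector with BATF. After 1 more day of activation and 2 days in 10 ng/ml IL-2, CD8+ GFP+ cells were sorted and kept for 2 days in 1 ng/ml IL-2. Each group had 2 libraries (MIG_1 and MIG_2, BATF_1 and BATF_2), described by the submitters as biological replicates. The sources used here do not say whether each library came from its own mouse, so p-values measure how these libraries vary, and part of that spread may be technical. BATF was supplied from a retroviral vector after activation, so its level is not that of a natural response.

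Class I PI3K makes the membrane lipid PIP3 when antigen, costimulatory or IL-2 receptors are engaged. PIP3 recruits the kinase AKT, which phosphorylates FOXO proteins and thereby drives them out of the nucleus. In resting and memory T cells nuclear FOXO1 maintains genes of survival and lymph node homing. Phosphatases remove PIP3 or its breakdown products, and PIK3IP1 dampens the PI3K catalytic subunit at the membrane. The data hold mRNA levels, so neither PIP3, nor phosphorylation, nor the location of FOXO proteins was measured.

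The libraries held 19004726 to 24795714 fragments, and each of the 9 genes had between 716 and 30004 fragments in a library. Levels are CPM, fragments of a gene on a common library size, with scaling by TMM, a trimmed mean of log ratios. The overexpressed gene checked the labels, with Batf at 36.1 and 26.5 CPM in MIG and 1342.3 and 934 CPM in BATF. Of 13008 genes tested by edgeR's quasi-likelihood test, 142 passed an adjusted p of 0.05 (Benjamini-Hochberg), 115 upward and 27 downward. That total was 317 with MIG_1 left out, 327 with MIG_2 left out, 164 with BATF_1 left out and 214 with BATF_2 left out. Of 9 markers of CD8 T cells none was called, and their summed level was 5344.7 and 5335.3 CPM in MIG and 4424.5 and 4923.4 CPM in BATF. Of 11 listed markers of myeloid and dendritic cells, 6 were under 1 CPM in every library, Lyz2 and Csf1r among them. The sum of these markers, mostly Cst3 and Itgax, was 94.5 and 92.9 CPM in MIG and 133 and 118 CPM in BATF. For 4 markers of CD4 and regulatory T cells the sum was 27 and 20.9 CPM in MIG and 47.7 and 37.4 CPM in BATF, mostly Zbtb7b, while Cd4 stayed at 0.791 CPM or less. Sums for B cell, NK and gamma-delta T cell, and erythroid, platelet and stromal markers were at most 18.3 CPM in a library. No marker of these lists was called, and their part in the results below was not tested.

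Foxo1 was lower in the cells with added BATF, and it was the 1 of the 9 genes that passed the test. FOXO1 is the forkhead factor that supports quiescence and lymph node homing in T cells. Its level was 225 and 228 CPM with the empty vector and 146 and 150 CPM with BATF. Both BATF libraries lay well below both MIG libraries, and the libraries of a group nearly coincided. Foxo1 fell by 34.6%, from 226 ± 1.68 to 148 ± 2.68 CPM (SD, n = 2 per group; log2 fold change −0.61 ± 0.08 SE, 95% interval −0.80 to −0.43, edgeR adjusted p = 0.0229). Over all tested genes 1.09% were called, 0.884% upward and 0.208% downward, and 91.3% of tested genes had a smaller absolute log2 fold change than Foxo1. The call did not hold with BATF_1 left out (log2 fold change −0.60, adjusted p = 0.109 by edgeR), with BATF_2 left out (−0.63, 0.0691) or with limma on log2(FPKM + 1) (−0.60, 0.0679). Under the other settings the share of all genes called was 1.12% with DESeq2-style size factors, 1.53% with no filter on low counts, 3.03% with DESeq2, and 0.349% and 0.476% with limma on log2(FPKM + 1) and log2(FPKM + 0.1). It was 11.6% with a replicate block, and with 1 library left out it was 2.44% (MIG_1), 2.51% (MIG_2), 1.26% (BATF_1) and 1.65% (BATF_2). In a bulk sample, fewer cells that express a gene and less of its RNA per cell cannot be told apart.

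Foxo3 encodes the second FOXO factor of T cells, known for restraining survival and cytokine programmes. Its level was 56.7 and 46.1 CPM in MIG and 56.2 and 56.6 CPM in BATF. The MIG libraries enclosed both BATF libraries. The log2 fold change was 0.13 ± 0.12 SE (95% interval −0.15 to 0.41, edgeR adjusted p = 0.848), and its sign turned with MIG_2 left out. Because the deposited FPKM divides by transcript length, it lets the 2 factors be set side by side. The ratio of Foxo1 to Foxo3 in FPKM was 1.99 and 2.48 in MIG and 1.31 and 1.33 in BATF. It was thus lower in both BATF libraries, by 0.75 on the log2 scale against a pooled SD of 0.16, but 2 libraries against 2 cannot give an exact permutation p below 0.333 and no test was run. Of the other family members, Foxo4 stood at 37.8 ± 3.63 and 31.3 ± 1.96 CPM (adjusted p = 0.496 by edgeR, log2 fold change −0.27), and Foxo6 was at most 0.198 FPKM.

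**Figure D1:**
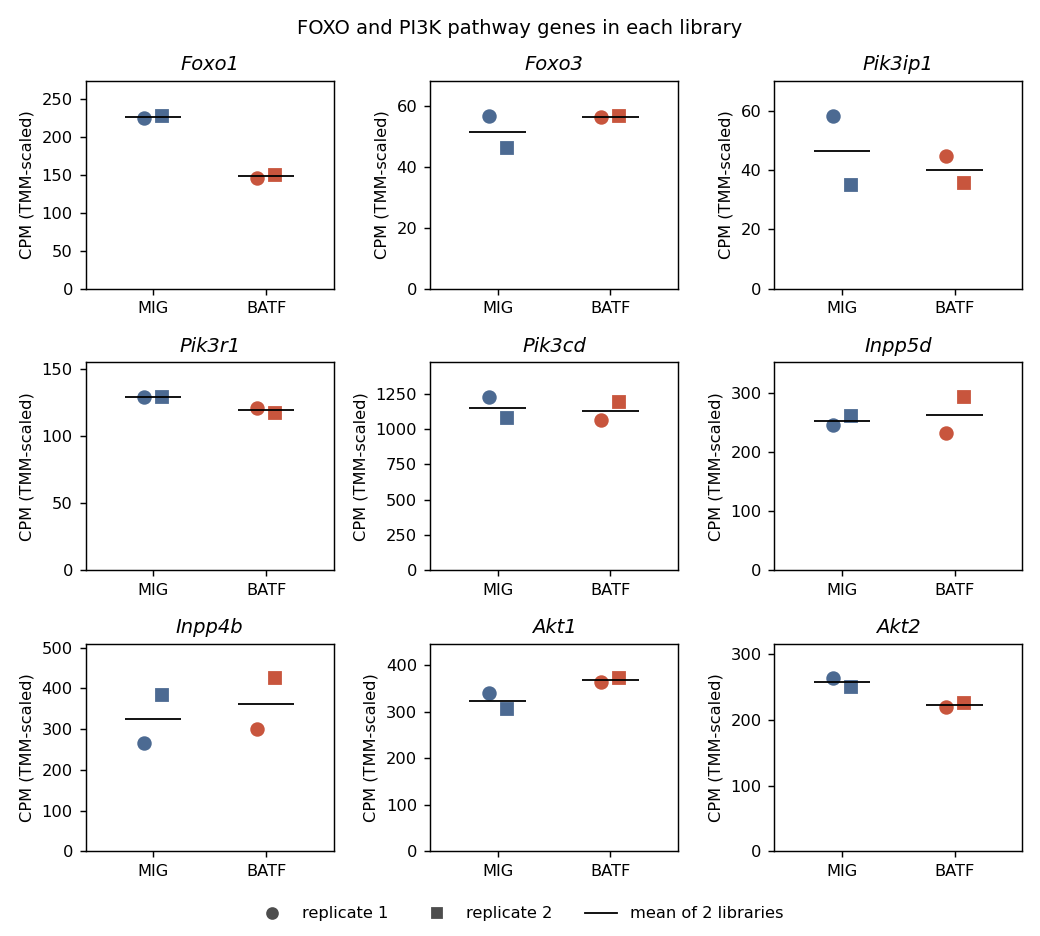
Levels of the 9 genes in TMM-scaled CPM (vertical axes from 0) in the MIG (blue) and BATF (red) libraries, with circles for replicate 1, squares for replicate 2 and a line at the mean of 2 libraries. Foxo1 sits at 225 and 228 CPM in MIG and at 146 and 150 CPM in BATF, while Inpp4b and Pik3ip1 vary between libraries of the same group.

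The promoters of both FOXO genes are shown because Foxo1 moved and its paralog did not pass. They are the 250 bases before the RefSeq start site, in build GRCm38.p6, while the study's reads were aligned to mm9. Foxo1 lies at chr3:52268087-52268336 on the plus strand and Foxo3 at chr10:42276696-42276945 on the minus strand. Capitals mark CCAAT on either strand (it reads ATTGG on the other), an element bound by the factor NF-Y.
Foxo1: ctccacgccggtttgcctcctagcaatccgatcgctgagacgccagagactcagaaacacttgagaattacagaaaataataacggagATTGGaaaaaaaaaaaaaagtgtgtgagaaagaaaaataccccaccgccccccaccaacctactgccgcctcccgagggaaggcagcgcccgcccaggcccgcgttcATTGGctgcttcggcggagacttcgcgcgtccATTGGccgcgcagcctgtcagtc
Foxo3: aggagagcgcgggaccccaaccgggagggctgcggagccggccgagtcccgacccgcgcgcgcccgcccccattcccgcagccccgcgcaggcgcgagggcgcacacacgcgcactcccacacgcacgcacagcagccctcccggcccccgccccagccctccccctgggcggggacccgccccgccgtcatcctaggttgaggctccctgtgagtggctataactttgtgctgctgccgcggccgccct
Foxo1 held 3 such matches, beginning 162, 55 and 23 bases before the start, and Foxo3 held 0. With the 50 bases after the start included, CCAAT was in 5 of the 16 windows of the 9 genes, each of a different gene. Pik3r1, Pik3cd, Inpp4b and Akt2, which were not called, were among these 5 genes. The GC box, GGGCGG on either strand, was also searched in the windows with those 50 bases. It matched 5 times in Foxo1 and 5 times in Foxo3, and 35.7% of all RefSeq windows held it. Counted in bases before the start, the Foxo1 matches began at 118, 73, −2, −7 and −28. The negative ones lie after the start, outside the printed bases. The Foxo3 matches began at 187, 102, 83, 73 and 7, all within the printed bases. A link of these letters to the change of Foxo1 was not tested. Over all 32851 RefSeq windows of 300 bases (250 before the start and 50 after), 37.4% held CCAAT on either strand. In the 250 bases before the start, the part printed here, 33.8% held it. The core AP-1 motif that BATF with JUN can bind, TGANTCA on either strand, was in 0 of the 16 windows of the 9 genes and in 7.81% of all windows. The absence of these letters from so short a window says nothing about binding elsewhere.

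The 3 tested genes whose profile over the 4 libraries lay nearest to that of Foxo1 were Gab3, Gm12250 and Slco3a1. Likeness was the Euclidean distance between log2 CPM profiles, each centred on its own mean, over 9352 genes with at least 5 CPM, and it was 0.0331, 0.0575 and 0.0681. Gab3, an adaptor that binds the PI3K regulatory subunit, stood at 12.9 and 12.8 CPM in MIG and 8.44 and 8.64 CPM in BATF. At this lower level it did not pass (log2 fold change −0.59, adjusted p = 0.145 by edgeR), while Gm12250 (−0.64, 0.0248) and Slco3a1 (−0.57, 0.0263) did. With 4 libraries in 2 groups, such likeness mostly says that a gene has a fold change like that of Foxo1 and a small spread.

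The PI3K subunits showed no change past the threshold. Pik3cd encodes p110-delta, the catalytic subunit found mainly in leukocytes. It was the most abundant of the 9 genes, at 266 and 224 FPKM in MIG and 223 and 255 FPKM in BATF. On the CPM scale Pik3cd stood at 1225.8 and 1073.8 in MIG and at 1060.0 and 1192.1 in BATF, and the groups overlapped. Its log2 fold change was −0.03 ± 0.10 SE (95% interval −0.27 to 0.21, edgeR adjusted p = 0.975). Pik3r1 encodes p85-alpha and its shorter forms, which hold and stabilise the catalytic subunit. It stood at 129 CPM in both MIG libraries and at 121 and 117 CPM in BATF. The BATF libraries were a little lower without overlap, and the difference did not pass (adjusted p = 0.746 by edgeR, log2 fold change −0.11 ± 0.08 SE, 95% interval −0.29 to 0.07). Per length, Pik3cd exceeded Pik3r1 by 13.8-fold and 12.1-fold in MIG and by 12.7-fold and 14.7-fold in BATF.

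Other catalytic subunits were far below Pik3cd. Pik3cg, the subunit driven by G-protein coupled receptors, stood at 18.3 ± 0.574 FPKM in MIG and 21.2 ± 1.35 in BATF. The widely expressed Pik3ca was at 9.08 ± 0.252 and 11.1 ± 0.0605 FPKM and Pik3cb at 1.48 ± 0.0412 and 1.32 ± 0.158 FPKM. None of them was called, with log2 fold changes of 0.22 for Pik3cg, 0.30 for Pik3ca and −0.16 for Pik3cb (edgeR adjusted p = 0.433, 0.186 and 0.895). Pik3r2, which encodes p85-beta, stood at 6.01 and 2.57 CPM in MIG and 15.1 and 6.8 CPM in BATF. The groups did not overlap, but replicate 1 was above replicate 2 in each group, and Pik3r2 did not pass with all libraries (adjusted p = 0.343 by edgeR, log2 fold change 1.33, 95% interval 0.20 to 2.46). It passed with BATF_2 left out (adjusted p = 0.0218 by edgeR, log2 fold change 1.80).

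Pik3ip1, the membrane protein that inhibits PI3K, was among the least stable of the 9 genes between libraries of a group. It stood at 58.3 and 34.8 CPM in MIG and at 44.7 and 35.5 CPM in BATF. MIG_1 was the highest library, and MIG_2 the lowest. The log2 fold change was −0.22 ± 0.24 SE with a 95% interval from −0.79 to 0.35 (edgeR adjusted p = 0.891), so neither a fall like that of Foxo1 nor a moderate rise could be told from no change. Leaving out MIG_1 turned the value to 0.20, and leaving out MIG_2 made it −0.54 (edgeR adjusted p = 0.0933).

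Neither lipid phosphatase among the 9 genes was called. Inpp5d encodes SHIP1, the phosphatase of blood cells that removes a phosphate from PIP3. It stood at 245 and 260 CPM in MIG and at 232 and 293 CPM in BATF, and the BATF libraries enclosed those of MIG (adjusted p = 0.96 by edgeR, log2 fold change 0.06 ± 0.12 SE, 95% interval −0.23 to 0.34). Inpp4b acts on the lipid that SHIP1 leaves. It stood at 265 and 384 CPM in MIG and at 300 and 425 CPM in BATF, higher in replicate 2 than in replicate 1 of each group. Its log2 fold change was 0.16 ± 0.21 SE (95% interval −0.35 to 0.67, edgeR adjusted p = 0.918), and its sign turned with MIG_1 left out (−0.09) or BATF_2 (−0.11). Inppl1, which encodes SHIP2, was low at 1.36 ± 0.0538 and 2.03 ± 0.279 FPKM, so Inpp5d was the dominant SHIP gene per length.

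The AKT genes pointed in opposite directions by small amounts, and neither passed. Akt1, the widely expressed isoform, stood at 340 and 307 CPM in MIG and at 364 and 372 CPM in BATF. Akt2, the isoform best known from insulin signalling, stood at 263 and 250 CPM in MIG and at 219 and 226 CPM in BATF. In each case the groups did not overlap, Akt1 being higher and Akt2 lower in BATF. The log2 fold change was 0.19 ± 0.09 SE for Akt1 (95% interval −0.02 to 0.39, edgeR adjusted p = 0.527). For Akt2 it was −0.21 ± 0.08 SE (95% interval −0.40 to −0.02, unadjusted p = 0.0349, edgeR adjusted p = 0.387). The ratio of Akt1 to Akt2 in FPKM was 1.48 and 1.41 in MIG and 1.9 in both BATF libraries, a difference of 0.40 on the log2 scale against a pooled SD of 0.03. This ratio was examined as 1 of 5 and was not tested, and an SD from 2 libraries per group is itself uncertain.

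**Figure D2:**
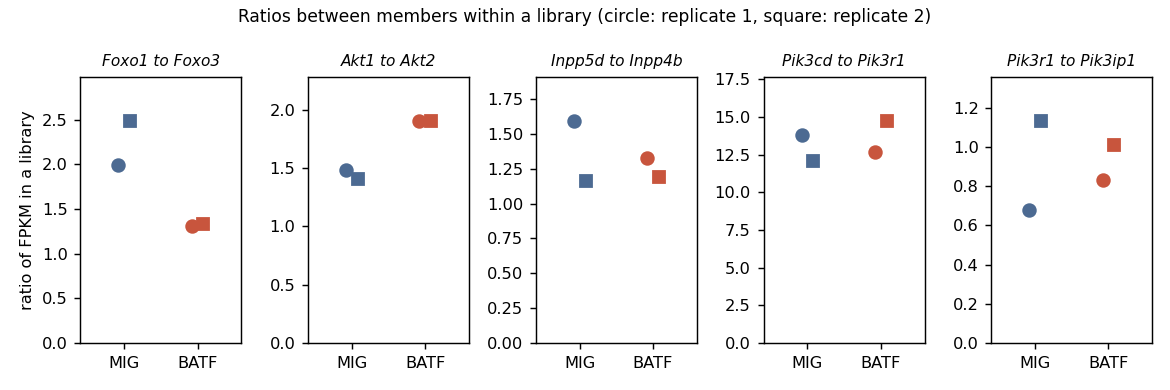
Ratio of deposited FPKM between pairs of the 9 genes within each library (vertical axes from 0), MIG in blue and BATF in red, circles for replicate 1 and squares for replicate 2. Foxo1 to Foxo3 is lower (1.31 and 1.33 against 1.99 and 2.48) and Akt1 to Akt2 higher (1.9 against 1.48 and 1.41) in both BATF libraries, while the MIG and BATF points of the other 3 ratios overlap.

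A core motif of FOXO factors, GTAAACA on either strand, occurred in 1 of the 16 promoter windows, an Akt1 start site, and in 3.65% of all RefSeq windows. It is shown only as a match of letters, and binding of a FOXO factor there was not tested. The window is chr12:112674885-112675134 of GRCm38.p6 on the minus strand, and capitals mark the motif, which begins 161 bases before the start and reads TGTTTAC here.
Akt1: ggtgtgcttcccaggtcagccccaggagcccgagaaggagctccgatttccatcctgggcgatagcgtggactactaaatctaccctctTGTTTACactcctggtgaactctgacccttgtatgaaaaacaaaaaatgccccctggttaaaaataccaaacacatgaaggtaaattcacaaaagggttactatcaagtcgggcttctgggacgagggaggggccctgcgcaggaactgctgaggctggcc
Akt1 has 2 such windows in the RefSeq table, and the other one does not hold the motif. The deposited table has 1 value per gene, so use of the start sites was not measured.

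**Figure D3:**
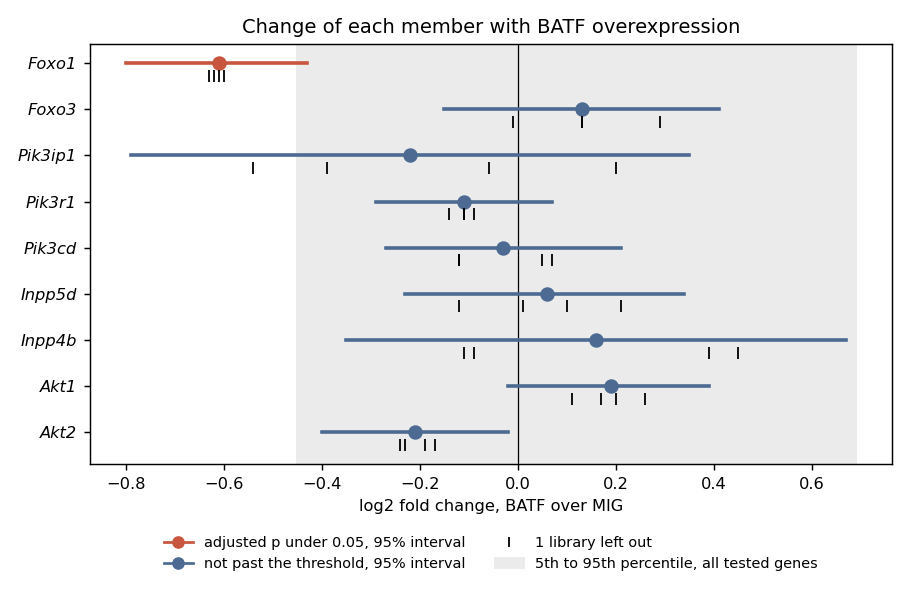
Log2 fold change of BATF over MIG for each of the 9 genes with its 95% interval (edgeR, n = 2 per group), black ticks for the fits that leave out 1 library, and grey for the 5th to 95th percentile of all tested genes (−0.45 to 0.69). The interval of Foxo1 lies below 0 and its ticks fall between −0.63 and −0.60, and the ticks of Pik3ip1, Inpp5d, Inpp4b, Pik3cd and Foxo3 fall on both sides of 0.

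Ranked by FPKM the order was Pik3cd, Akt1, Akt2, Inpp5d, then Inpp4b and Foxo1, then Pik3ip1, Foxo3 and Pik3r1. The first 4 places were the same in every library. In MIG, Foxo1 (42.2 and 41 FPKM) and Inpp4b (33 and 46.1 FPKM) were not separated, whereas in BATF both libraries put Foxo1 (26.5 and 27.7 FPKM) below Inpp4b (36.1 and 52.1 FPKM). The last 3 genes lay between 16.4 and 28.6 FPKM and changed places from library to library.

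**Figure D4:**
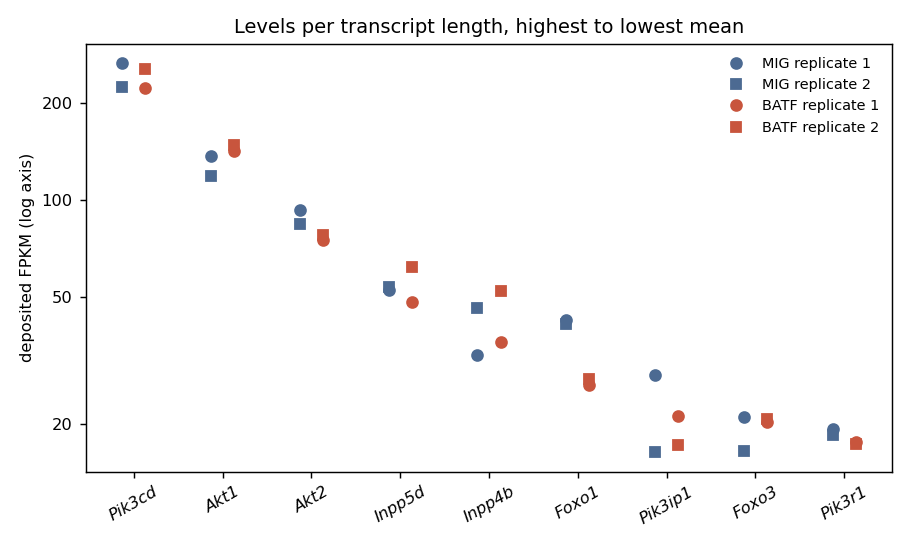
Deposited FPKM of the 9 genes (log axis), ordered by the mean of 4 libraries, with MIG in blue and BATF in red, circles for replicate 1 and squares for replicate 2. Pik3cd is highest at 223 to 266 FPKM, and the points of Pik3ip1, Foxo3 and Pik3r1 overlap near the bottom.

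As a group, 4 of the 9 genes had a positive log2 fold change and 5 a negative one, and their median was −0.03 beside −0.01 over all tested genes. The CPM of the groups did not overlap in 4 of the 9 (Foxo1, Pik3r1, Akt1 and Akt2), beside 38.7% of all tested genes. The median absolute log2 fold change was 0.16 for the 9 genes and 0.12 for all. Apart from Foxo1, these values are close to those of the genes at large.

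Around these genes, the other PI3K subunits and the receptors and adaptors that feed PI3K held 1 called gene among 21 tested. Over all tested genes 1.09% were called. At an unadjusted p under 0.05 in edgeR, 7 of the 21 were higher and 3 lower, beside 6.69% and 4.09% of all tested genes. Their median absolute log2 fold change was 0.22, beside 0.12 for all tested genes. Icos, a costimulatory receptor whose tail recruits PI3K strongly, rose from 79.7 and 71.7 CPM to 205 and 191 CPM (adjusted p = 0.00523 by edgeR, log2 fold change 1.38 ± 0.09 SE). The list had a median log2 fold change of 0.03, and its count was 3 with MIG_2 left out and 2 with BATF_2 left out. Irs2, an adaptor of insulin and IL-4 receptors, did not pass (9.55 ± 1.22 and 8.71 ± 1.85 CPM). Of 22 phosphoinositide phosphatases edgeR called 0 (at an unadjusted p under 0.05, 3 were higher and 0 lower), where 6.69% of all tested genes were higher and 4.09% lower. DESeq2 called 1, limma on log2(FPKM + 1) called 0, and edgeR called 1 with MIG_1 left out.

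The 20 AKT partners tested include the upstream kinases, the related SGK kinases and the phosphatases of AKT. Sgk1 was the 1 gene called among them, beside 1.09% called over all tested genes. At an unadjusted p under 0.05 in edgeR, 1 of the 20 was higher and 4 lower, beside 6.69% and 4.09% of all tested genes. SGK1, a kinase downstream of PI3K that can phosphorylate FOXO proteins itself, has a transcript that rises quickly with hormones and stress. It fell from 38.1 and 35.6 CPM to 22.9 and 22.6 CPM (adjusted p = 0.0426 by edgeR, log2 fold change −0.70 ± 0.11 SE), and the call did not hold with BATF_1 left out (adjusted p = 0.13 by edgeR), with BATF_2 left out (0.15) or with limma on log2(FPKM + 1) (0.0738). Its relative Sgk3, named after its values were seen, was at 43.2 ± 5.87 (MIG) and 23.9 ± 3.24 CPM (BATF) and missed the threshold (adjusted p = 0.059 by edgeR, log2 fold change −0.85). Pdpk1, the kinase that activates AKT and SGK, stood at 117 ± 6.67 and 117 ± 0.0654 CPM, with a 95% interval of its log2 fold change from −0.19 to 0.20. Mtor (66.1 ± 7.31 and 66.6 ± 2.81 CPM) and Rictor (59.2 ± 3.03 and 54.4 ± 0.974 CPM), parts of the mTORC2 complex that also activates AKT, did not pass. The list's count was 3 with MIG_1 left out, 2 with MIG_2 left out, 0 with BATF_1 left out and 2 with BATF_2 left out.

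Of 30 genes of mTORC1 and its brakes edgeR called 0, and DESeq2 and limma on log2(FPKM + 1) called 0. At an unadjusted p under 0.05 in edgeR, 4 were higher and 0 lower. Over all tested genes 6.69% were higher and 4.09% lower at that threshold. Tsc1, a brake of mTORC1, stood at 30.9 ± 4.87 and 33.4 ± 0.0141 CPM. Of 23 other FOXO factors and regulators of FOXO proteins edgeR called 0 (at an unadjusted p under 0.05, 1 was higher and 2 lower), and 1 with MIG_2 left out. DESeq2 and limma on log2(FPKM + 1) called 0 of them. Foxp1, a forkhead factor that opposes FOXO1 at shared genes in naive T cells, stood at 151 ± 14.9 and 128 ± 12.8 CPM (adjusted p = 0.524 by edgeR, log2 fold change −0.24).

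Of 36 known FOXO target genes tested, Bnip3 and Cdkn1a rose, Ccr7 fell and 33 were not called, beside 1.09% called over all tested genes. At an unadjusted p under 0.05 in edgeR, 6 of the 36 were higher and 6 lower, beside 6.69% and 4.09% of all tested genes. Their median absolute log2 fold change was 0.28, beside 0.12 for all tested genes. In the list 25 had a negative and 11 a positive log2 fold change (median −0.10), beside 6698 negative and 6310 positive over all tested genes (median −0.01). Ccr7, the receptor that leads T cells to lymph nodes, fell from 182 and 155 CPM to 108 and 90.5 CPM (adjusted p = 0.0426 by edgeR, log2 fold change −0.77 ± 0.12 SE). Its call was lost with BATF_2 left out (edgeR adjusted p = 0.0785) and with limma on log2(FPKM + 1) (0.0961). Cdkn1a, which encodes the cell cycle inhibitor p21, rose from 55.5 and 61.1 CPM to 123 and 118 CPM (adjusted p = 0.00839 by edgeR, log2 fold change 1.05 ± 0.09 SE). Bnip3, a mitophagy receptor also induced by low oxygen, rose from 35.4 and 44.5 CPM to 77.4 and 110 CPM (adjusted p = 0.038 by edgeR, log2 fold change 1.23 ± 0.19 SE), a call lost with limma on log2(FPKM + 1) (0.0772). The count for the list was 7 with MIG_1 left out, 6 with MIG_2 left out and 5 with BATF_2 left out.

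Most of the homing and survival targets did not pass in edgeR with all libraries and the filter on low counts. Tcf7, which encodes the memory factor TCF-1, stood at 508 and 318 CPM in MIG and at 232 and 207 CPM in BATF (adjusted p = 0.123 by edgeR, log2 fold change −0.91). The adjusted p of Tcf7 was 0.0206 with MIG_1 left out, 0.000613 with MIG_2 left out and 0.00561 with all libraries and no filter on low counts, each by edgeR. Bcl2l11, which encodes the death protein BIM, stood at 65.9 ± 6.16 and 47.3 ± 3.08 CPM (adjusted p = 0.123 by edgeR, log2 fold change −0.48). For Bcl2l11 the adjusted p was 0.0266 by edgeR with MIG_1 left out and 0.032 by DESeq2 with all libraries. For Klf2, the factor that drives homing receptors, the groups overlapped, at 224 and 165 CPM in MIG and 179 and 113 CPM in BATF. S1pr1, the exit receptor of lymph nodes, was at 234 and 214 CPM in MIG and 218 and 167 CPM in BATF. The log2 fold changes were −0.42 for Klf2 and −0.22 for S1pr1 (edgeR adjusted p = 0.627 and 0.676). Il7r (197 ± 64.9 and 210 ± 47.4 CPM), Cdkn1b (114 ± 20.4 and 114 ± 6.43 CPM) and Sesn3 (79.6 ± 4.34 and 74.4 ± 8.93 CPM) did not pass.

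The list of PIP3-binding proteins and their relatives held 2 called genes among 28 tested, beside 1.09% called over all tested genes. At an unadjusted p under 0.05 in edgeR, 6 of the 28 were higher and 5 lower, beside 6.69% and 4.09% of all tested genes. Their median absolute log2 fold change was 0.22, beside 0.12 for all tested genes. That median was 0.12 for AKT partners, 0.10 for the mTORC1 list, 0.10 for FOXO regulators and 0.07 for phosphatases. Txk, a Tec family kinase of T cells that lacks the PIP3-binding domain of its relatives, fell from 15.5 and 15.2 CPM to 4.96 and 5.56 CPM (adjusted p = 0.0113 by edgeR, log2 fold change −1.55 ± 0.15 SE). Adap1, a GTPase-activating protein recruited by PIP3, rose from 61.6 and 43.2 CPM to 203 and 158 CPM (adjusted p = 0.0154 by edgeR, log2 fold change 1.78 ± 0.19 SE). The list's count was 4 with MIG_1, MIG_2 or BATF_2 left out.

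**Figure D5:**
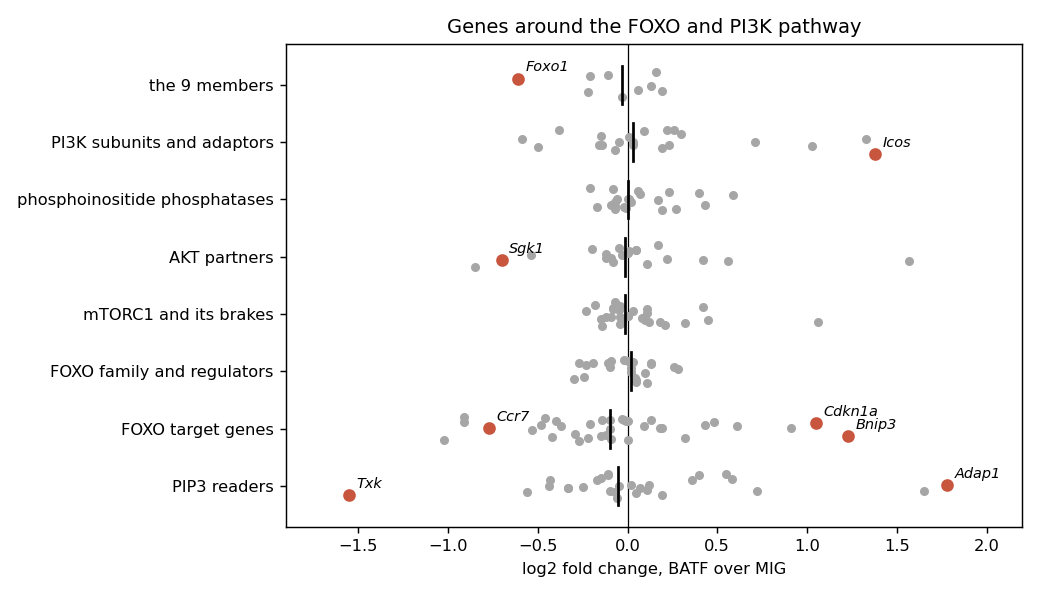
Log2 fold change of BATF over MIG for the tested genes of the 9 and of 7 lists around the pathway, with red and named points for genes called at an adjusted p under 0.05, grey for the others and a black line at the median of each list. The medians lie between −0.10 and 0.03, and the called genes are Foxo1, Icos, Sgk1, Ccr7, Cdkn1a, Bnip3, Txk and Adap1.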

How the data were processed

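Alignment and quantification used TopHat2 2.1.1, Cufflinks 2.2.2 and Cuffdiff on build mm9, per the submitters' processing notes. Neither the annotation nor the strand setting is given in the sources used here. In the GENCODE annotation of GRCm38, exons of Foxo1 and Pik3ip1 overlap Gm20402 and Gm12592 on the other strand, and without strand their reads cannot be told apart. The deposited table gives estimated counts of fragments per gene and library before scaling (97.6% whole) and FPKM on the authors' Cuffdiff scale, per the file headers. It numbers replicates 0 and 1, read here as 1 and 2, so numbers only name libraries. The replicates of each group varied beyond counting noise (mean chi-square per gene 18 in MIG and 9.66 in BATF).

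Estimated counts were rounded, filtered with filterByExpr and scaled by TMM (factors 0.988 to 1.01), then tested with glmQLFit and glmQLFTest of edgeR 4.0.16 in R 4.3.3, BATF against MIG with group as the only term. Adjustment was over all 13008 genes tested. The SE was taken as the unshrunk coefficient over the root of F. The biological coefficient of variation was 11.3%. Alternatives used DESeq2 1.42.0, limma 3.58.1 on log2(FPKM + 1) and log2(FPKM + 0.1) for genes with a mean FPKM of at least 1, other size factors, no filter on low counts, a replicate block, and each library left out. Fits that leave out 1 library take the spread from the group that still has 2. The functions were tested on simulated data.

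The genes and lists were chosen with earlier results of these data known. Named are the 9 genes, Batf, called genes of each list (the 6 largest changes where more than 6), a fixed set of pathway genes, and the 3 genes nearest in profile to Foxo1 and to any other called gene of the 9. Some of the fixed genes are not reported here. FOXO and PI3K lists hold no member of the 9. Promoter windows came from RefSeq (GRCm38.p6), where all 9 genes matched.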

Additional observations from a re-analysis of the deposited data

How the results depend on the processing

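Foxo1 kept its direction under all 10 alternatives, with log2 fold changes from −0.63 to −0.60. The call among the 9 genes went from 1 to 0 with limma on log2(FPKM + 1) and log2(FPKM + 0.1) (adjusted p = 0.0679 and 0.0675), and was 0 to 1 with a library left out. Over all genes, 142 calls became 349 with no filter on low counts, 364 with DESeq2, and 36 and 49 with the 2 limma fits, and 164 to 327 with a library left out. The list of PI3K subunits and adaptors went from 1 to 2 with DESeq2 and was 1 to 3 with a library left out. Phosphoinositide phosphatases went from 0 to 1 with DESeq2 and were 0 to 1 with a library left out. AKT partners went from 1 to 3 with no filter and with DESeq2, to 0 with both limma fits, and were 0 to 3 with a library left out. FOXO target genes went from 3 to 7 with no filter, 6 with DESeq2 and 1 with both limma fits, and were 4 to 7 with a library left out. PIP3 readers went from 2 to 5 with no filter and with DESeq2, and were 2 to 4 with a library left out. FOXO regulators were 0 to 1 with a library left out. The cause of these changes was not tested.

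With the replicate number as a block, which leaves 1 residual degree of freedom, edgeR called 1504 genes, 1 of the 9 (Foxo1, log2 fold change −0.61, adjusted p = 3.92e-13), and 8, 3, 6, 3, 5, 15 and 12 genes of the PI3K, phosphatase, AKT partner, mTORC1, FOXO regulator, FOXO target and PIP3 lists. Same-numbered libraries shared deviations with a correlation of 0.181 across genes, from 2 pairs, and no label says that a number marks a shared source, so a call found with the block alone is not taken as a change.

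Of 360 single-gene values under alternatives, 308 kept direction and side of the threshold, and 25 changed sign, all of genes that were not called. With a library left out, log2 fold changes spanned −0.0091 to 0.29 for Foxo3, −0.54 to 0.20 for Pik3ip1, −0.12 to 0.07 for Pik3cd, −0.12 to 0.21 for Inpp5d and −0.11 to 0.45 for Inpp4b. They spanned −0.06 to 0.06 for Pdpk1, −0.10 to 0.13 for Mtor, −0.04 to 0.28 for Tsc1, −0.21 to 0.48 for Il7r, −0.17 to 0.19 for Cdkn1b, −0.22 to 0.02 for Sesn3 and −0.37 to 0.07 for Irs2. The value near 0 of Cdkn1b (−0.00051) became 0.00042 with DESeq2-style size factors, 0.0007 with DESeq2, 0.0058 and 0.0062 with the limma fits and 0.0096 with the block, and that of Pdpk1 became −0.01 with both limma fits.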
